A study of Mus musculus with 8 samples.

Results

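Genes of foreign-compound metabolism were followed through both comparisons of the series. They were chosen by the gene name on the array and comprised cytochrome P450 genes of families 1 to 4, glutathione S-transferase genes of the alpha, mu, omega, pi and theta classes, glucuronosyltransferase genes of families 1 and 2 and sulfotransferase genes of family 1. The efflux pump genes Abcb1a, Abcc2, Abcc3 and Abcg2 and the receptor targets Nqo1, Ahrr and Tiparp completed the set. This gave 97 of the 27845 gene names on the array, each represented by its brightest probe. Testing required signal well above background, as called by the scanner, on all arrays for either or both of the RNAs compared. By that criterion 85 of the 97 were tested in the Ascl2-deleted epithelium and 46 in the sorted cells, out of 15989 and 10469 genes tested in all, and the 46 were among the 85. The 12 that were tested in neither were Cyp1a2, Cyp2a12, Cyp2a5, Cyp2c38, Cyp2c54, Cyp2d13, Cyp2g1, Cyp2j11, Cyp2j5, Cyp4a12b, Sult1e1 and Ugt2b1. Of the 97, 31 had more than 1 probe, and in the deletion 18 further probes of 17 members were well above background, of which 15 had the sign of the brightest probe on day 3 and 17 on day 5.

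Foreign compounds are handled in stages. P450 enzymes oxidise them, conjugating enzymes attach glutathione, glucuronic acid or sulfate, and ATP-driven pumps export the products. In the small intestine these genes are mainly active in mature villus enterocytes, where they limit the uptake of drugs and plant compounds. Their transcription is switched on by ligand-activated receptors and by a stress-responsive factor. The receptors are chiefly the aryl hydrocarbon receptor (AhR, for the Cyp1 genes) and the pregnane X and constitutive androstane receptors (PXR and CAR, for Cyp3a and Cyp2b genes). The stress-responsive factor is NRF2 (for Nqo1 and glutathione S-transferase genes), which is not a receptor.

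The deletion comparison set RNA of intestinal epithelium from Ah-Cre mice with both Ascl2 copies floxed (Ascl2 floxed/floxed, called deleted) against RNA of Ah-Cre controls with a single floxed copy (Ascl2 floxed/wt), 3 and 5 days after Cre induction. Both groups carry Ah-Cre, in which the promoter of the rat Cyp1a1 gene, itself an AhR target, drives the recombinase. The inducing agent and the number of animals behind each deletion RNA are not given in the sources used here. The sort comparison set GFPhi cells against GFPlo cells from the intestine of Lgr5-EGFP-ires-CreERT2 mice, in 2 sorts that each pooled 3 mice. There were 4 RNA pairs, each put on 2 arrays that differ in dye orientation. Such arrays share both extracts and were counted once, which leaves n = 2 RNA pairs for a comparison and n = 1 for a day. Where 2 array values are given for a day or a sort, the first is from the array with the deleted or GFPhi RNA in Cy3 and the second from the array with it in Cy5. All values are log2 ratios of deleted over control or of GFPhi over GFPlo. The p-values of both comparisons rest on 1 spread, pooled over the difference between the 2 sorts and that between the 2 days. Those of the day difference rest on the 2 sorts alone. No p-value measures the spread between replicate deletion extracts of a day.

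Ascl2 was lower in the deleted epithelium on every array, at -1.36 and -1.30 on day 3 and -1.29 and -1.34 on day 5. Lgr5 was higher in GFPhi cells on every array, with a mean of 1.85 ± 0.35 (SD, n = 2 sorts). In the deletion 55.0% to 66.9% of spots per channel gave signal well above background, and in the sorts 35.5% to 44.6% did. Precision is limited by how few arrays there are. Dye-swapped arrays correlated at 0.81 on day 3 and 0.78 on day 5 over all probes, and at 0.27 and 0.38 in the 2 sorts. Each RNA pair lay on a slide of its own, so slide and RNA pair cannot be told apart. Ratios of arrays from different days correlated between -0.07 and 0.03. In the epithelium 17 of 18 enterocyte markers were tested. Of 8 hepatocyte markers on the array 3 were tested, Apoh, Tat and Ttr, with medians of -0.12 and -0.08 on the 2 days, and Tat was at 0.64 and 0.93 on day 5. Apoh and Tat were well above background on all 4 arrays in both RNAs, and Ttr on 1 of 4 in deleted RNA and on 4 of 4 in control RNA. Ahsg, Fga and Fgg were well above background on no deletion array, Fgb on 1 of 4 and Alb1 on 2 of 4 in each RNA.

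Most members had ratios below 0 on day 5, and on day 3 more were above 0 than below. On day 5, 75 of the 85 tested members had a ratio below 0, with a median of -0.40, and 35 were at least 1.5-fold lower on both arrays, which is 41.2% of members against 2.03% of all genes tested. On day 3 the median was 0.06, with 49 members above 0 and 36 below. By the same rule 13 members were higher on day 3, which is 15.3% of members against 5.77% of all genes, and 8 were lower, which is 9.41% against 7.39%. Only 3 members, Cyp1b1, Gsta3 and Ahrr, were at least 1.5-fold higher on both day 5 arrays, which is 3.53% of members against 2.6% of all genes. Over all 15989 genes tested, 8071 were above 0 on day 3 and 8290 below 0 on day 5, with medians of 0.0036 and -0.0066. With median centring in place of loess, 20 members were lower on both day 5 arrays, 23.5% of members against 0.982% of all genes, and 5 were higher on both day 3 arrays, 5.88% against 1.61%.

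**Figure D1:**
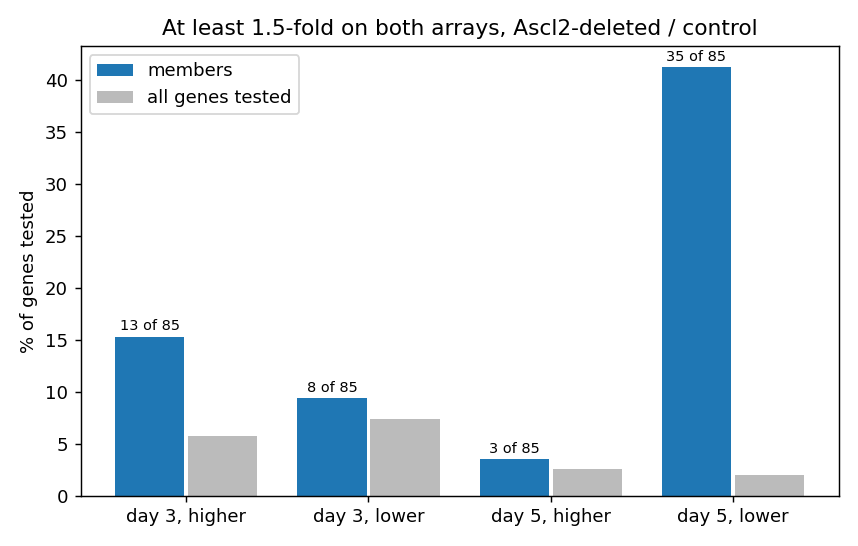
Share of tested genes (y axis, percent) at least 1.5-fold higher or lower in Ascl2-deleted than in control epithelium on both arrays of a day. Blue bars are the 85 tested members, with their counts above the bars, and grey bars are all 15989 genes tested; the lower calls of day 5 hold 41.2% of members and 2.03% of all genes.

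Across the 85 members the day 3 and day 5 ratios had a Pearson r of -0.30, against -0.02 over all genes tested, a description over genes of shared arrays. Of the 85, 42 were above 0 on day 3 and below 0 on day 5, and 33 were below 0 on both days. A further 7 were above 0 on both, and 3 were below 0 on day 3 and above 0 on day 5. Over all 15989 genes tested these counts were 4301, 3989, 3770 and 3929, in the same order. Opposite signs of either order were about as common among members (52.9%) as among all genes tested (51.5%), but in members they were mostly of the first order. At the 1.5-fold rule, 11 members were higher on both day 3 arrays and lower on both day 5 arrays, which is 12.9% of members against 0.432% of all genes tested. They were Cyp3a11, Cyp3a16, Cyp3a41, Cyp3a44, Cyp2c44, Cyp4b1, Cyp4v3, Ugt2b5, Ugt2b36, Ugt2b37 and Ugt2b38. The opposite course, lower on day 3 and higher on day 5, was seen in Cyp1b1 and Ahrr, or 2.35% of members against 0.325% of all genes.

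**Figure D2:**
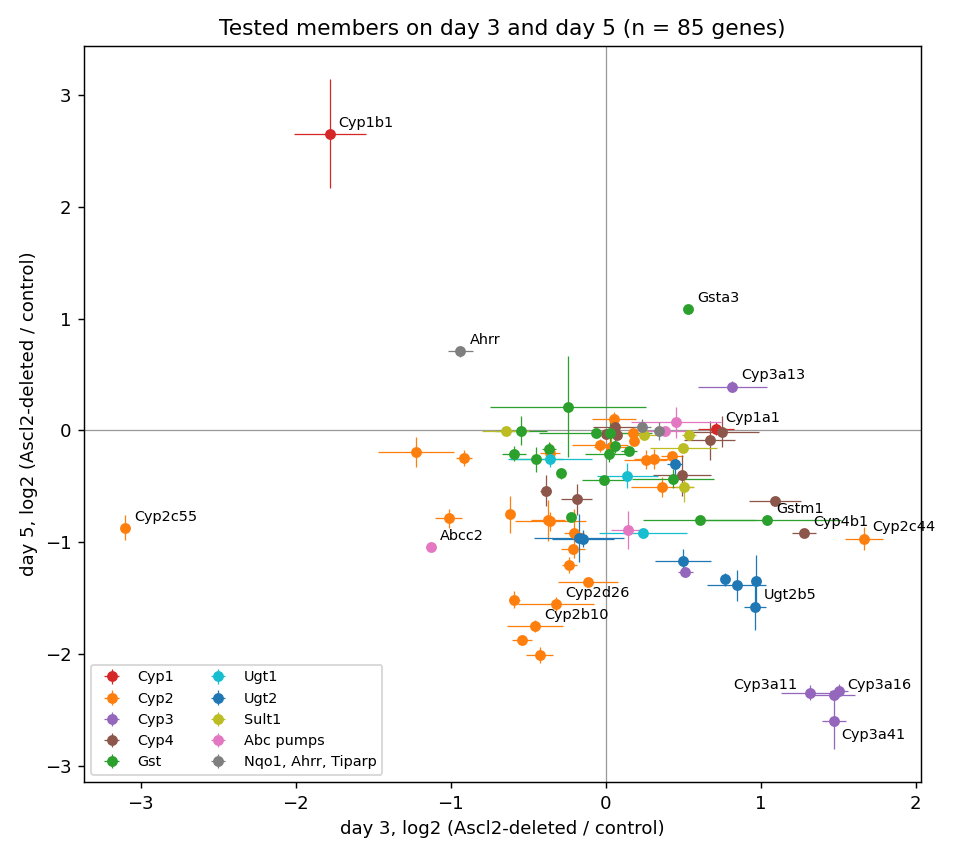
Log2 ratio of Ascl2-deleted over control on day 3 (x axis) and day 5 (y axis) for the 85 tested members, coloured by gene family. Points are means of the 2 dye-swapped arrays of a day and bars run to the values of the single arrays; the Cyp3a genes at the lower right, the Cyp2b genes at the lower centre, Cyp2c55 at the left and Cyp1b1 at the upper left lie farthest from the origin.

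The difference between the days was tested with limma over all genes, with its spread taken from the 2 sorts because each day has 1 RNA pair. By that test 51 of 85 members differed between day 5 and day 3 at an adjusted p under 0.05, which is 60% of members against 28% of all genes tested. This count of all genes, 4484, became 0 on the scanner's processed signals and 0 with median centring, and the cause was not tested. For genes that passed the signal filter only in the deletion, the sorts supply ratios at or near background, with a median SD of 0.0458 against 0.195 between the days, so their day difference is given as a value with no test. Among the 10341 genes tested in both comparisons, a setting chosen after seeing the data, 22 of 46 members passed, which is 47.8% against 23.7% of all genes. In the joint test over both days, 0 of 85 members and 0% of all genes passed at an adjusted p under 0.05. At an unadjusted limma p under 0.05 there were 23 of 85 members, which is 27.1% against 9.63% of all genes. One sign on all 4 deletion arrays was seen in 25 members with lower and 2 with higher ratios, which is 29.4% and 2.35% of members against 13.3% and 12.6% of all genes.

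The Cyp3a genes, which encode the most abundant drug-oxidising P450 enzymes of the intestine and liver, had the highest median of any family in the set on day 3, 1.40, and the lowest on day 5, -2.33. All 6 were tested, 5 were at least 1.5-fold higher on both day 3 arrays, and 5 were at least 1.5-fold lower on both day 5 arrays. Cyp3a11, the main mouse PXR target of this family, had ratios of 1.501 and 1.13 on day 3 but of -2.41 and -2.28 on day 5. The deleted RNA thus lay 2.49-fold above control on day 3 and 5.08-fold below it on day 5, and neither pair of arrays overlapped 0. The day difference was -3.66, with no test.

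Cyp3a41, Cyp3a44 and Cyp3a16, which are female-predominant genes in mouse liver, followed Cyp3a11 closely. Cyp3a41 stood at 1.55 and 1.40 on day 3 and at -2.35 and -2.84 on day 5, the lowest day 5 value among the members. Cyp3a44 stood at 1.61 and 1.34 on day 3 and at -2.33 and -2.39 on day 5, and Cyp3a16 at 1.56 and 1.45 and then -2.27 and -2.38. A dimmer Cyp3a44 probe that was not above background gave day means of 3.42 and -0.27. These transcripts are close in sequence, and whether each probe reads 1 gene or several was not tested. Cyp3a25 had the same course at a smaller size, with 0.56 and 0.47 on day 3 and -1.31 and -1.22 on day 5, and a second Cyp3a25 probe gave 0.42 and -1.16 as day means. Cyp3a13, which lies apart from the cluster of the other 5 on chromosome 5, was above 0 on all 4 arrays, at 0.59 and 1.04 on day 3 and 0.34 and 0.44 on day 5. Its day difference missed the threshold (-0.42, SE 0.14, limma adjusted p = 0.086 among genes tested in both comparisons).

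The bases before the start of these genes are shown for the 4 Cyp3a genes that were above 2-fold in both directions, which are close in sequence, and for Cyp3a13, which was above 0 on both days. Each line gives 120 bases up to the start in RefSeq (build GRCm38.p6), with capitals for CAAAGTCCA, a binding element of the nuclear receptor HNF4, searched on both strands of the 250 bases before the start. These elements were chosen after the promoters had been read. The windows lie on the minus strand at chr5:145879855-145879974 (Cyp3a11), chr5:145469724-145469843 (Cyp3a16), chr5:145720137-145720256 (Cyp3a41, now Cyp3a41a), chr5:145805875-145805994 (Cyp3a44) and chr5:137921620-137921739 (Cyp3a13).
Cyp3a11: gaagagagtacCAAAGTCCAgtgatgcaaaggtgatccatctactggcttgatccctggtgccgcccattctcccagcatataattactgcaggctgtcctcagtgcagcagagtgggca
Cyp3a16: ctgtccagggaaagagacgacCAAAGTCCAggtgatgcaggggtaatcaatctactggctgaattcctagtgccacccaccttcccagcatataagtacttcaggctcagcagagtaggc
Cyp3a41: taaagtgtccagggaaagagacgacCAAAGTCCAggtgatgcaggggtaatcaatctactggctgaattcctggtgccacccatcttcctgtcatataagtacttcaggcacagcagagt
Cyp3a44: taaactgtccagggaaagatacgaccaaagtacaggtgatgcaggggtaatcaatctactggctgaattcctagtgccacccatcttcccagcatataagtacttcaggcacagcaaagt
Cyp3a13: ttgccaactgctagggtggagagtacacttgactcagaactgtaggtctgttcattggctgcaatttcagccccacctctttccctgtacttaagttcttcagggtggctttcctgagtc

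CAAAGTCCA was present before Cyp3a11, Cyp3a16 and Cyp3a41, starting 109, 99 and 95 bases before the gene start. It was absent before Cyp3a25 and Cyp3a13, and Cyp3a44 carries C7A in it relative to Cyp3a41, counted from 1 at the 5′ end of the element. It is held by 6 of the 83 members with a promoter in RefSeq (7.23%), against 0.381% of all 27025 promoters. The 6 include Cyp2c40, Cyp2c65 and Cyp2c70, and Cyp2c40 and Cyp2c65 were below 0 on all 4 arrays. Over these 250 bases Cyp3a16, Cyp3a41 and Cyp3a44 were 91.3% to 94.4% identical to each other, Cyp3a11 was 72.5% to 76.6% identical to them, and Cyp3a13 54.0% to 58.4% to these 4. Cyp3a25, which had the same course as the 4, was 54.3% to 56.0% identical to them. A match of letters is a description of the sequence and does not show a bound site.

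The Ugt2b genes, which encode glucuronosyltransferases of steroids, bile acids and drugs, were above 0 on day 3 and below 0 on day 5 in all 6 tested, with day 5 means nearer to 0 than that of Cyp3a11. Of 9 Ugt2 genes 8 were tested, 4 were at least 1.5-fold higher on both day 3 arrays and 7 at least 1.5-fold lower on both day 5 arrays. Ugt2b5 had ratios of 1.03 and 0.89 on day 3 and of -1.36 and -1.78 on day 5, a day difference of -2.54. Ugt2b37 was at 0.98 and 0.96 and then at -1.11 and -1.57, and Ugt2b38 at 1.04 and 0.66 and then at -1.24 and -1.52. Ugt2b36 was at 0.77 on both day 3 arrays and at -1.27 and -1.39 on day 5. In these 4 genes every day 3 array lay above control and every day 5 array below it.

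Ugt2b35 was near the rule on day 3, at 0.68 and 0.32, and lower on day 5, at -1.06 and -1.28. Ugt2b34 was the exception on day 5, at -0.40 and -0.21, after 0.40 and 0.50 on day 3. The Ugt2a genes, whose products conjugate bile acids and odorants, did not share the day 3 side. Ugt2a1 was at 0.12 and -0.46 on day 3 and at -0.75 and -1.17 on day 5, and Ugt2a3 at 0.06 and -0.34 and then at -0.89 and -1.04. The Ugt2b transcripts are near-identical in stretches, and whether their probes tell them apart was not tested.

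The 60 bases before the start are shown for the 4 Ugt2b genes at least 1.5-fold higher on day 3 and lower on day 5, and for Ugt2b34. AGGTCA, the half-site that many nuclear receptors bind, is in capitals where present (GRCm38.p6, minus strand, chr5:87140341-87140400, chr5:87092556-87092615, chr5:87254789-87254848, chr5:87424204-87424263 and chr5:86906938-86906997 in the order of the lines).
Ugt2b5: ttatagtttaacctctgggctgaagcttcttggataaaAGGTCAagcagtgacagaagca
Ugt2b36: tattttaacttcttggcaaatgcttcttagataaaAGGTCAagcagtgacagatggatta
Ugt2b37: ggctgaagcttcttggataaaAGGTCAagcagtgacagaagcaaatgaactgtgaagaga
Ugt2b38: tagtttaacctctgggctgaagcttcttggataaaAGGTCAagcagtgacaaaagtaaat
Ugt2b34: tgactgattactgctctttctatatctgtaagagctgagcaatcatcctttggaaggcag

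AGGTCA started 22 bases before Ugt2b5, 25 before Ugt2b36, 39 before Ugt2b37 and 25 before Ugt2b38, within a longer stretch that these 4 genes share. It was absent from the 250 bases before Ugt2b34. In Ugt2b35 it stood only 215 bases before the start. Among the members with a promoter in RefSeq 21 of 83 hold AGGTCA in this window (25.3%), against 13.8% of all promoters. Ugt2b5, Ugt2b37 and Ugt2b38 were 73.0% to 85.6% identical over the window, and Ugt2b36 was 57.1% to 61.1% identical to them.

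Markers of enterocytes, tuft cells and enteroendocrine cells moved with these families. Tuft cell markers (4 tested) had medians of 0.975 on day 3 and -0.406 on day 5. Enteroendocrine markers (10 tested) had medians of 0.398 and -0.35. Of 17 tested enterocyte markers 15 were above 0 on day 3, with a median of 0.74, and 14 were below 0 on day 5, with a median of -0.44. Their summed signal ran from 839796 to 925494 units in deleted RNA and from 420014 to 676904 in control RNA on day 3, and from 470353 to 572924 in deleted RNA and from 574911 to 622215 in control RNA on day 5. Fewer cells of a type and less RNA per cell cannot be told apart in such bulk samples. The part of a shift in any of these cell types in these results was not tested. The female-specific transcript Xist was at -0.73 and -0.57 on day 3 and at 0.73 and 0.57 on day 5, while 4 Y-linked genes were well above background on no deletion array.

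The Cyp2b genes, the classic CAR targets, were lower in deleted epithelium on both days and by more on day 5. Cyp2b10 was at -0.27 and -0.63 on day 3 and at -1.80 and -1.70 on day 5, which is 3.36-fold lower on day 5, and a second Cyp2b10 probe gave day means of -0.47 and -1.68. Cyp2b9 was at -0.34 and -0.51 and then at -2.07 and -1.94, and Cyp2b13 at -0.48 and -0.60 and then at -1.88 and -1.87. All 4 arrays lay below 0 in these 3 genes, yet the 2 days differed enough that the joint test did not pass (limma adjusted p of 0.49 to 0.52). A second Cyp2b9 probe was at -0.47 and -1.02, about the same on day 3 and smaller on day 5. A dimmer Cyp2b13 probe that was not above background gave day means of -0.03 and 0.02. The Cyp2b genes may share probe signal, which was not tested. Cyp2b19, a skin P450 gene, was at 0.17 and 0.19 on day 3 and at -0.08 and -0.11 on day 5.

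The Cyp2c genes, whose products oxidise arachidonic acid and many drugs, split in 3 ways. Of 9 tested, 5 were at least 1.5-fold lower on both day 3 arrays, and 4 on both day 5 arrays. Cyp2c55, a mouse CAR and PXR target that makes hydroxylated arachidonic acid in the gut, was the lowest member of day 3 at -3.12 and -3.08, which is 8.58-fold, and stood at -0.98 and -0.76 on day 5. The deficit was smaller on both day 5 arrays than on either day 3 array, by 2.23 on average. Cyp2c66 and Cyp2c65 were likewise lower mainly on day 3. Cyp2c66 was at -0.98 and -1.47 on day 3 and at -0.06 and -0.32 on day 5, and Cyp2c65 at -0.86 and -0.97 and then at -0.17 and -0.32.

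Cyp2c40 and Cyp2c29 had like ratios on both days. Cyp2c40 was at -0.92 and -1.10 on day 3 and at -0.70 and -0.87 on day 5, a mean of -0.90 ± 0.16 (SD, n = 2 RNA pairs). Cyp2c29 was at -0.62 and -0.61 and then at -0.91 and -0.59, a mean of -0.68 ± 0.09 (SD, n = 2 RNA pairs). With Cyp2c55 and the pump gene Abcc2 these are the 4 members at least 1.5-fold lower on each of the 4 deletion arrays, which is 4.71% of members against 0.338% of all genes tested. No member was 1.5-fold higher on all 4 arrays, against 0.413% of all genes. None of the 4 passed the joint limma test (adjusted p of 0.298 to 0.489), and with median centring the count was 0. Cyp2c44, a renal and hepatic epoxygenase gene now named Cyp2c23, went with the Cyp3a genes instead, at 1.54 and 1.79 on day 3 and at -0.87 and -1.07 on day 5.

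By their brightest probes, all tested Cyp2d genes were lower on day 5. Cyp2d genes encode the mouse relatives of the human debrisoquine hydroxylase, and all 4 tested were at least 1.5-fold lower on both day 5 arrays. Cyp2d26 was at -0.57 and -0.07 on day 3 and at -1.49 and -1.61 on day 5, and Cyp2d9 at 0.08 and -0.30 and then at -1.34 and -1.36. Cyp2d10 was at -0.28 and -0.19 and then at -1.13 and -1.27, and Cyp2d22 at -0.13 and -0.29 and then at -1.07 and -1.06. Their day 3 means lay between -0.32 and -0.11. Other probes above background differed from this for Cyp2d22, with day means of 0.93 and 0.07 and of 0.26 and -0.30, and for Cyp2d10, with -0.0051 and -0.09, while a second Cyp2d9 probe gave -0.09 and -1.36. Among the epoxygenase genes of the Cyp2j group, Cyp2j9 was at -0.56 and -0.62 on day 3 and at -1.44 and -1.58 on day 5, while Cyp2j6 and Cyp2j13 had day 5 means of -0.81 and -0.80. Cyp2e1, the ethanol-oxidising P450 gene, had a day 5 mean of -0.92 but was well above background in deleted RNA on only 1 of the 2 arrays of either day.

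Of the Cyp4 genes, which encode fatty acid hydroxylases, 10 were tested. By the 1.5-fold rule 2 of them were higher on both day 3 arrays and lower on both day 5 arrays. Cyp4b1 was at 1.21 and 1.36 on day 3 and at -0.94 and -0.89 on day 5, and Cyp4v3 at 0.92 and 1.26 and then at -0.64 and -0.62. The other Cyp4 genes did not meet the 1.5-fold rule on either day. Cyp4f15 was well above background on no array in deleted RNA and on all 4 in control RNA. Its measured mean was 1.38-fold lower in deleted epithelium, a size that rests on a deleted signal not well above background. Cyp4f14 was at 0.52 and 0.99 on day 3 and at -0.15 and 0.13 on day 5.

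**Figure D3:**
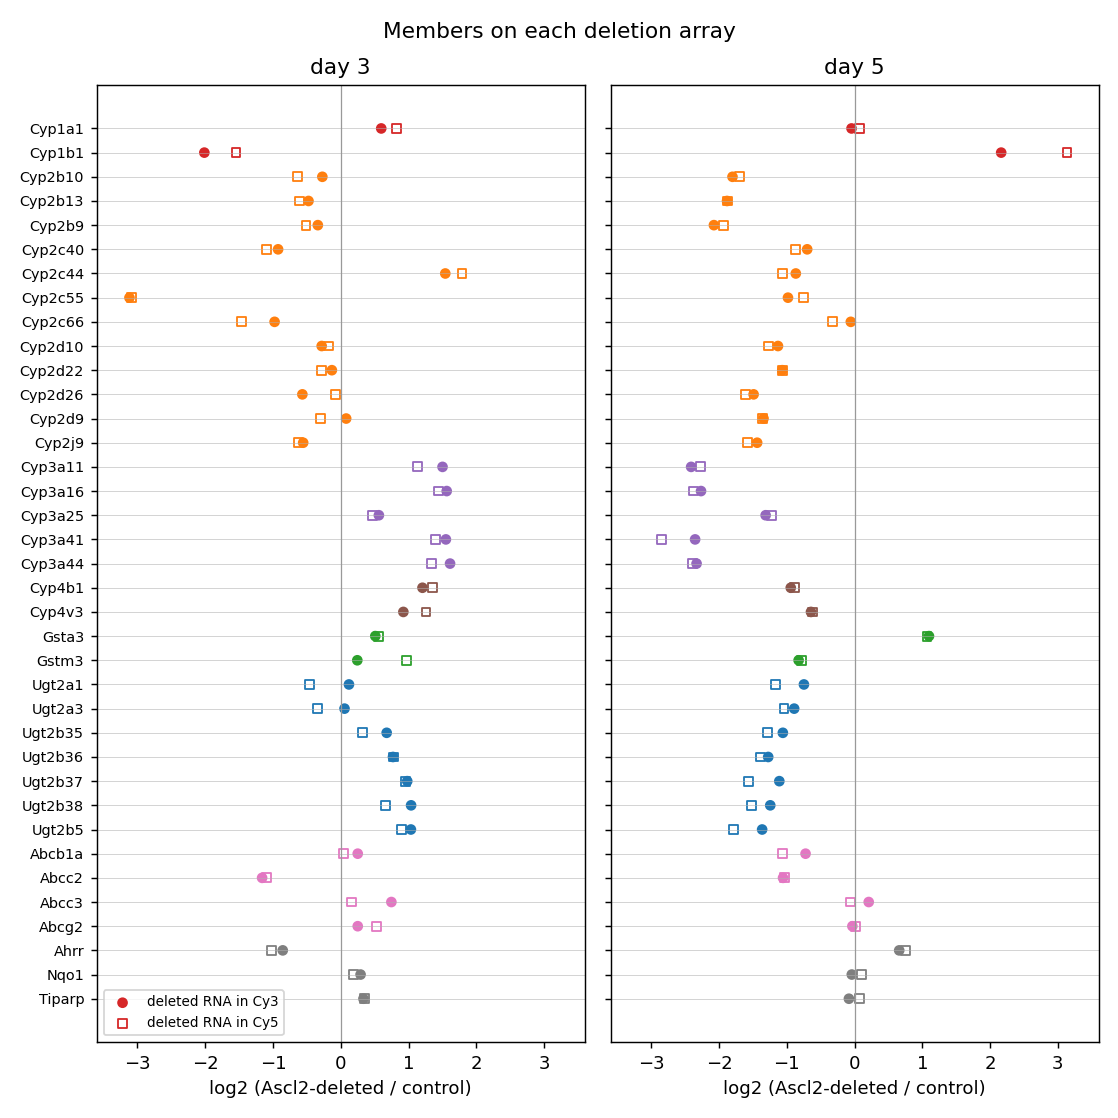
Log2 ratio of Ascl2-deleted over control (x axis) on each of the 4 deletion arrays for 37 members, day 3 in the left panel and day 5 in the right. Filled circles are arrays with the deleted RNA in Cy3 and open squares those with it in Cy5; Cyp3a and Ugt2b genes lie right of 0 on day 3 and, Cyp3a13 not being drawn, left of 0 on day 5, while Abcc2 keeps its place.

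The glutathione S-transferase and sulfotransferase genes had medians nearer to 0 than the Ugt2 genes on both days. The Ugt2 medians were 0.635 on day 3 and -1.25 on day 5. All 17 glutathione S-transferase genes were tested, none met the 1.5-fold rule on day 3, and on day 5 1 was higher and 3 were lower. Gsta3, whose product detoxifies aflatoxin epoxide in mice, was the higher one, at 0.51 and 0.56 on day 3 and 1.10 and 1.07 on day 5, and a second probe gave day means of 0.47 and 1.02. Gstm3, a mu class gene, was at 0.24 and 0.97 on day 3 and at -0.83 and -0.78 on day 5. Its 2 day 3 arrays share the RNA and still differed by more than the day 3 mean of 0.61, so that mean is poorly fixed. Gstm1 had the same form, at 0.57 and 1.52 and then at -0.79 and -0.81, and Gstm2 had means of -0.22 and -0.77. The mu class genes may share probe signal, which was not tested. Of the 5 tested sulfotransferase genes of family 1, 0 met the rule on either day, with day 3 means from -0.64 (Sult1c2) to 0.54 (Sult1a1). Ugt1a1, the bilirubin-conjugating enzyme gene, was at 0.52 and -0.04 on day 3 and at -0.95 and -0.88 on day 5.

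Among the pumps, Abcc2 had like ratios on all 4 deletion arrays. Abcc2, which encodes the apical exporter of glutathione and glucuronide conjugates (MRP2), was at -1.16 and -1.09 on day 3 and at -1.06 and -1.03 on day 5. The mean of -1.08 ± 0.06 (SD, n = 2 RNA pairs) is a level 2.12-fold lower, with SE 0.08 and a limma adjusted p of 0.298 in the joint fit, which did not pass. The Abcc2 probe maps to the plus strand of chromosome 19 (43890900 to 43890959 in mouse build mm8). Abcb1a, the gene of the apical multidrug exporter P-glycoprotein, was at 0.25 and 0.04 on day 3 and at -0.72 and -1.06 on day 5, a day difference of -1.03. Abcc3, which exports glucuronides across the basolateral membrane, was at 0.75 and 0.16 on day 3 and at 0.21 and -0.06 on day 5. Abcg2, the apical exporter of sulfate conjugates, was at 0.25 and 0.52 and then at -0.03 and 0.02. Neither Abcc3 nor Abcg2 met the 1.5-fold rule on a day.

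Targets of the AhR did not move together. Cyp1a1, the most inducible AhR target, was at 0.60 and 0.83 on day 3, which is 1.64-fold higher in deleted epithelium, and at -0.04 and 0.07 on day 5. Cyp1b1, a further AhR target that is also expressed in connective tissue cells, was at -2.01 and -1.55 on day 3 and at 2.16 and 3.14 on day 5. Ahrr, the AhR repressor gene, was at -0.86 and -1.02 on day 3 and at 0.66 and 0.76 on day 5. Both genes thus lay below control on both day 3 arrays and above it on both day 5 arrays, with day differences of 4.43 and 1.64. On day 5 Cyp1b1 was well above background on both arrays in deleted RNA and on 1 of the 2 in control RNA, and a second, dimmer Cyp1b1 probe that was not above background gave -0.21 and 0.01.

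Nqo1, a quinone reductase gene shared by AhR and NRF2, was at 0.29 and 0.18 on day 3 and at -0.04 and 0.10 on day 5. Tiparp, which encodes an ADP-ribosyltransferase that restrains the AhR, was at 0.33 and 0.35 on day 3 and at -0.08 and 0.08 on day 5. Cyp1a2 was well above background on no day 3 array in deleted RNA and on both in control RNA. Its measured day 3 mean was 1.25-fold lower in deleted RNA, a size that rests on a deleted signal not well above background. Of 8 tested genes of fibroblasts and smooth muscle, 5 were at least 1.5-fold higher on both day 5 arrays, with a list median of 2.91, and 3 were at least 1.5-fold lower on both day 3 arrays, with a list median of -0.13. The 5 were the matrix genes Col1a1, Col1a2, Col3a1, Dcn and Lum, with day 5 means from 1.42 to 5.11, and the 3 were Col1a1, Col1a2 and Col3a1. The smooth muscle genes Acta2, Tagln and Myh11 met the rule on neither day, with day 5 means of 0.18, 0.28 and -0.03. The summed signal of the 8 was between 7499 and 8615 units in deleted RNA and between 8150 and 8502 in control RNA on day 3, and between 20174 and 21486 in deleted RNA and between 4381 and 4942 in control RNA on day 5. Of the listed genes, Des alone was well above background on no deletion array. The part of connective tissue in the Cyp1b1 and Ahrr values was not tested.

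The core of the AhR element, GCGTG, is shown in capitals (CACGC on the other strand) in the 120 bases before these 3 genes, since their ratios differ although all carry it (GRCm38.p6, chr9:57697493-57697612 on the plus strand, chr17:79715062-79715181 and chr13:74292332-74292451 on the minus strand).
Cyp1a1: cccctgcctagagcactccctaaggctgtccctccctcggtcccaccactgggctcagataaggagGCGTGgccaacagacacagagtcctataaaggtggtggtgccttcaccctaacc
Cyp1b1: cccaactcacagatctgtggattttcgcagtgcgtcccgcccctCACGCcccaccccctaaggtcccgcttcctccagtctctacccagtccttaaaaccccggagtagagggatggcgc
Ahrr: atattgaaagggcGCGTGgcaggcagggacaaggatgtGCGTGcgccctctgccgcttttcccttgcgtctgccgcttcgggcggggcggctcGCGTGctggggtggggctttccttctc

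GCGTG is a short element that 16 of 83 members hold in the 250 bases before the start (19.3%), against 28.2% of all promoters. The known distal enhancers of Cyp1a1 lie outside it.

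Receptors and their partners are given from a list of their own. Of 13 tested xenobiotic sensors and partners, none a member, 0 passed the joint limma test, and the list's median was 0.19 on day 3 and -0.01 on day 5. The PXR gene Nr1i2 was at 0.54 and 0.18 on day 3 and at 0.17 and -0.35 on day 5, the CAR gene Nr1i3 at 0.26 and 0.12 and then at -0.28 and -0.29, and Ahr at -0.13 and 0.04 and then at -0.01 and -0.09. Hnf4a was above 0 on all 4 arrays, at 0.46 and 0.28 on day 3 and at 0.34 and 0.29 on day 5. The bile acid receptor gene Nr1h4 had means of 0.53 and 0.44 and Hif1a of 0.14 and 0.69. Rxra, the shared partner of PXR and CAR, met the 1.5-fold rule on day 3, at 0.80 and 0.60, and was at 0.02 and -0.23 on day 5. Genes that feed electrons and haem to P450 enzymes (11 tested, 0 past the test) had medians of -0.04 and 0.03, with Por, the P450 reductase gene, at 0.25 and 0.29 on day 3 and at -0.16 and -0.31 on day 5.

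Lists of receptor and NRF2 targets overlap with the members and are given as counts. Of 15 tested PXR and CAR targets, 13 were below 0 on day 5. By the 1.5-fold rule 11 were lower on both day 5 arrays, against 2.03% of all genes tested. The list's median was 0.22 on day 3 and -0.89 on day 5. Since 12 of the 15 are members, these counts are not separate from those of the members. Of 19 tested NRF2 targets, 8 of them members, 13 were above 0 on each day, with medians of 0.17 and 0.13. Of the 11 non-members, Srxn1, Gclc, Gsr, Pgd and Ugdh were above 0 on all 4 arrays. The 2 with the largest mean ratios were the sulfiredoxin gene Srxn1 at 0.52 and 0.66 on day 3 and 0.54 and 0.38 on day 5, and Gclc, the rate-limiting gene of glutathione synthesis, at 0.60 and 0.70 and then at 0.10 and 0.15. Of 11 tested glutathione supply genes, 8 and 7 were above 0 on the 2 days, and of 17 tested other ABC transporters 12 and 9 were, among them the sterol exporter gene Abcg5 at 0.48 and 0.51 on day 3 and at 0.04 on both day 5 arrays. No gene of these lists passed the joint limma test.

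**Figure D4:**
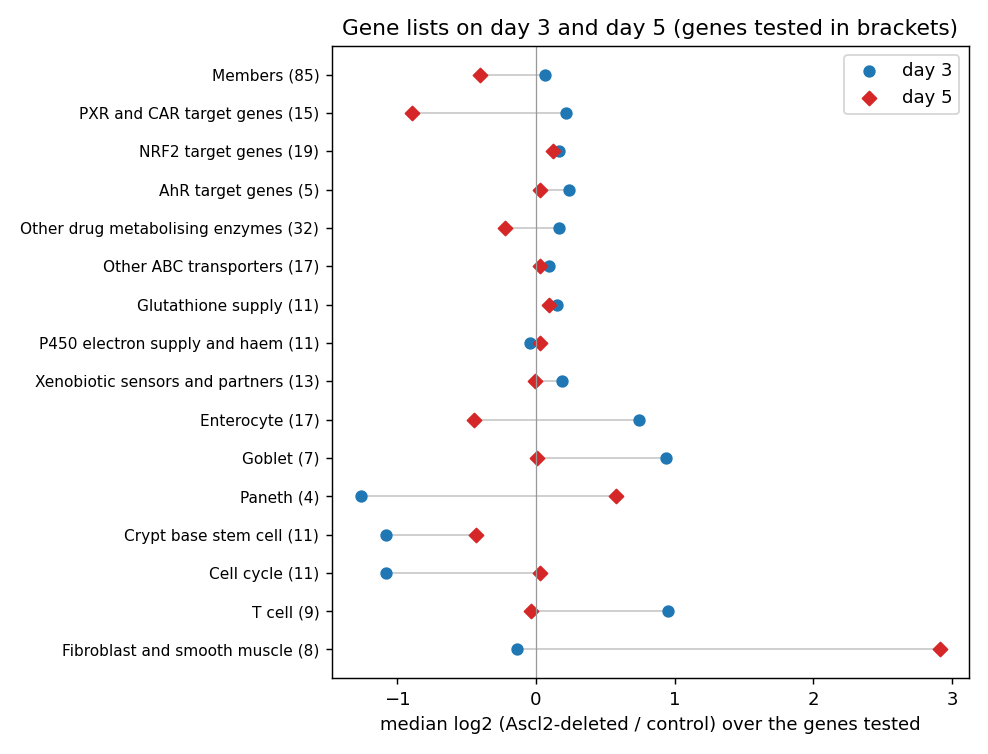
Median log2 ratio of Ascl2-deleted over control (x axis) on day 3 (blue circles) and day 5 (red diamonds) for the members and for lists of related genes and of cell type markers, with the number of genes tested in brackets. PXR and CAR targets and enterocyte markers lie right of 0 on day 3 and left of it on day 5, at 0.22 and 0.74 and then -0.89 and -0.44, and the median of fibroblast and smooth muscle genes is 2.91 on day 5. Tuft and enteroendocrine markers are not drawn.

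Other drug metabolising enzymes outside the set showed large differences in single genes. Of 32 tested, 20 were above 0 on day 3 and 24 below 0 on day 5, with medians of 0.17 and -0.22, and 0 passed the joint test. Cbr3 and Cbr1, which encode carbonyl reductases, stood apart from each other. Cbr3 was at 3.38 and 3.61 on day 3 and at 0.78 and 0.95 on day 5, whereas Cbr1 was at -2.18 and -1.75 and then at -0.46 and -0.36. Adh1, an alcohol dehydrogenase gene, was at -0.50 and -0.11 on day 3 and at -2.15 and -1.76 on day 5, and Akr1c14, a hydroxysteroid dehydrogenase gene, at -0.28 and -0.43 and then at -1.66 and -1.99.

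Other cell type markers differed on day 3 too. All 11 tested cell cycle genes were below 0 on day 3, with a median of -1.08, against 0.03 on day 5, and 9 of 11 crypt base stem cell genes were below 0 with a median of -1.08, against -0.43 on day 5. T cell markers had medians of 0.96 and -0.03, and goblet cell markers of 0.94 and 0.01. All 4 tested Paneth cell genes were below 0 on day 3, with a median of -1.26, against 0.58 on day 5. A list of immediate early and heat shock genes, kept as a sign of RNA handling, had 8 of 11 above 0 on day 3. Its medians were 0.515 on day 3 and -0.0561 on day 5. Hspa1a, a heat shock gene of that list, went the other way, at -3.07 and -3.06 on day 3. The part of any of these in the members' values was not tested.

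In the sorted cells the members' median was slightly below 0, families differed in direction, and no member passed a test. Of 46 tested, 27 were below 0, against 5227 of all 10469 genes tested, with medians of -0.06 and 0.0002. Of 14 tested glutathione S-transferase genes 10 were above 0, with a median of 0.08. They included all 7 of the mu class and all 3 of the theta class. Of 13 tested Cyp2 genes 10 were below 0, with a median of -0.12. By limma 0 members and 0% of all genes passed at an adjusted p under 0.05. At an unadjusted p under 0.05 there were 6 of 46, which is 13.0% against 4.53% of all genes. One sign on all 4 arrays was seen in 19 members lower in GFPhi, which is 41.3% against 17.1% of all genes, and in 6 higher, which is 13.0% against 16.5%. The 1.5-fold rule on each array was met by 2 members lower in GFPhi, Cyp4f14 and Cyp2s1, which is 4.35% against 0.373% of all genes, and by 0 higher, against 0.162%. The count of 2 was 0 with median centring, 6 on the series matrix values and 8 on the processed signals. Shares of all genes in these other settings are not given here.

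Cyp4f14, whose product inactivates leukotriene B4 in mice, was at -0.64 and -0.86 in sort 1 and at -0.95 and -0.67 in sort 2. The mean of -0.78 ± 0.04 (SD, n = 2 sorts) is a level 1.72-fold lower in GFPhi (limma adjusted p = 0.843). Cyp2s1, an epithelial P450 gene known to respond to the AhR, was at -0.73 and -0.88 in sort 1 and at -0.66 and -0.76 in sort 2, a mean of -0.76 ± 0.07 (SD, n = 2 sorts), 1.69-fold lower (limma adjusted p = 0.920). In both genes all 4 arrays lay clear of 0 and the 2 sorts overlapped each other.

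Other members with 1 sign were smaller or rested more on 1 sort. Gsta1, an alpha class transferase gene, was at -0.91 and -0.85 in sort 1 and at -0.47 and -0.29 in sort 2, and Ugt1a6b, a phenol glucuronosyltransferase gene, at -0.47 and -0.35 and then at -0.80 and -0.71. Nqo1 was at -0.65 and -0.50 in sort 1 and at -0.30 and -0.12 in sort 2. Higher in GFPhi were Cyp2e1, at 0.74 and 0.78 in sort 1 and at 0.36 and 0.24 in sort 2, and Gstt3, a theta class gene, at 0.36 and 0.55 and then at 0.10 and 0.65. Abcg2 was at -0.63 and -0.05 in sort 1 and at -0.40 and -0.28 in sort 2, and Abcc3 at -0.19 and -0.20 and then at -0.13 and -0.32. Abcc2, lower in the deleted epithelium, was at -0.11 and -0.03 in sort 1 and at -0.0035 and 0.0073 in sort 2. Abcb1a, Ahrr, Cyp1a1, Cyp1b1 and Cyp2b10 were well above background on no sort array, and 1 of the 6 Cyp3a genes, Cyp3a13, was tested there. Tiparp was at 0.24 and -0.07 in sort 1 and at 0.0012 and -0.02 in sort 2, and Gstm3 at 0.10 and 0.36 and then at -0.03 and 0.02.

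**Figure D5:**
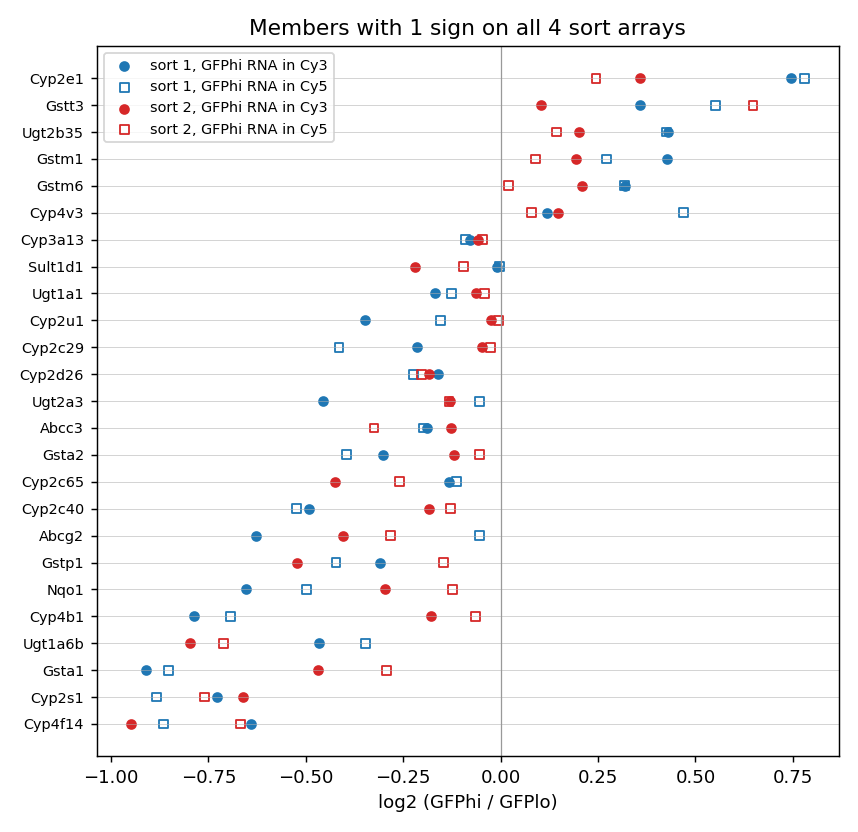
Log2 ratio of GFPhi over GFPlo (x axis) on each of the 4 sort arrays for the 25 tested members with 1 sign on all 4. Blue is sort 1 and red sort 2, filled circles have the GFPhi RNA in Cy3 and open squares in Cy5; Cyp4f14 and Cyp2s1 at the bottom lie beyond 1.5-fold on every array.

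Markers of secretory cells moved with the lower values in GFPhi. Goblet cell markers were below 0 in 6 of 7, with a median of -1.47, and enteroendocrine markers in 9 of 9, with a median of -1.26. Enterocyte markers were below 0 in 10 of 14, with a median of -0.10. Their part in the members' values was not tested.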

How the data were processed

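Each of the 8 two-colour Agilent arrays was read from the scanner's output. Per the file headers, the authors deposited Feature Extraction output with mean and background intensity for each spot and channel and the scanner's log10 ratio, and a series matrix with log2 ratios already turned by dye, whose centring and left-out spots are not given in the sources used here. Intensities were background-corrected (normexp, offset 50) and loess-normalised within each array with limma 3.58.1 in R 4.3.3. Control spots were left out, spots of a probe were averaged, every ratio was expressed as GFPhi over GFPlo or as deleted over control, and both arrays of a pair of RNAs were averaged. Genes were named by the name on a day 3 array file and represented by their brightest probe. Of the 97 members, 92 had a probe accession in the RefSeq table, and 3 have another symbol now. Probe positions are those of the files (mm8), and probe sequences were not used here.

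Testing required the scanner's call of signal well above background on all arrays for 1 RNA or both. A limma fit over the 4 RNA pairs gave both comparisons and the day difference, whose spread comes from the sorts alone and which is therefore tested for single members only among genes that passed in the sorts too; p-values were adjusted by Benjamini-Hochberg over all genes tested, with a threshold of 0.05. The 1.5-fold rule asks for that ratio in 1 direction on each array named. The fit was tested on simulated data. Nothing says that the RNAs of the 2 days or sorts are more than separate extracts or pools.

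Values on every deletion array were given for Abcc2, Cyp2b10, Gstm3, the tested AhR targets, the pumps and the members that met the 1.5-fold rule there, up to 30 by mean ratio. Values on the sort arrays were given for fewer members. Up to 4 genes a list were named where all 4 arrays had 1 sign. Nr1i2, Nr1i3, Ahr, Por, Rxra, Hspa1a, Xist, Tat, Gsr, Pgd, Ugdh, the fibroblast and hepatocyte genes, second probes and members beyond the 30 were added after their values were seen. The members, lists and tests were chosen with earlier results of these data known. Alternatives were the scanner's processed signals, no background subtraction, median centring, the series matrix, both other signal filters, the mean of all probes, each comparison fitted alone, the RNA pair as a random block and each RNA pair left out.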

Additional observations from a re-analysis of the deposited data

Results flagged for a closer look

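The day 5 minus day 3 difference in the deleted over control ratio could be tested in 16 of 37 named members measured in the deletion. These also passed the signal filter in the sorts, which supply the spread. Of these, 10 passed limma among genes tested in both comparisons, with adjusted p-values from 0.00862 to 0.0229. Over all members tested in both it was 22 of 46 (47.8%), against 23.7% of all genes. Named members were chosen mostly for large ratios on a day, so their count is no independent support, and over all genes tested in the deletion 0 passed on processed signals and 0 with median centring. The log2 differences were -2.2 in Cyp4b1, -1.72 in Cyp4v3, -1.67 in Ugt2b35, -1.41 in Gstm3, -1.24 in Cyp2d9, -1.23 in Cyp2d26, -0.968 in Cyp2d10, -0.922 in Cyp2j9, -0.821 in Ugt2a3 and 1.03 in Cyp2c66.

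A further 13 named members did not pass the signal filter in the sorts, so their difference was not tested. In each, both arrays of day 3 lay on the opposite side of 0 from both arrays of day 5. The differences were -4.07 in Cyp3a41, -3.84 in Cyp3a44, -3.83 in Cyp3a16, -3.66 in Cyp3a11, -2.63 in Cyp2c44, -2.54 in Ugt2b5, -2.31 in Ugt2b37, -2.23 in Ugt2b38, -2.1 in Ugt2b36, -1.78 in Cyp3a25, -1.03 in Abcb1a, 1.64 in Ahrr and 4.43 in Cyp1b1. Each day has 1 RNA pair.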

How the results depend on the processing

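No named member changed sign of a called value under any alternative run. Among the checks of single members, 317 were classed as the same, 7 as stronger and 77 as moved. The count of all genes that passed in GFPhi over GFPlo, 0, became 67 on the scanner's processed signals, 5 on the series matrix, 75 with the sorts fitted alone and 28 with the RNA pair as a random block, and ranged from 0 to 75 with an RNA pair left out. The 0 genes of the deletion became 261 with the random block, and ranged from 0 to 6160 with an RNA pair left out, 1207 without day 3 and 6160 without day 5, where the lone day is assumed to vary like the sorts. In that setting Abcc2 and Cyp2c29 passed with either day left out and Cyp2c40 without day 5. That spread is one of ratios at or near background for genes not tested in the sorts, such as Cyp2c55. The 4484 genes of the day difference became 0 on processed signals, 0 with median centring, 1737 on the series matrix and 2451 over genes tested in the sorts too, the last chosen after seeing the data. In the sorts, members at least 1.5-fold higher (0) numbered 1 on processed signals and 1 without background subtraction, and 0 to 1 with a sort left out. Those lower (2) numbered 8 on processed signals, 0 with median centring, 6 on the series matrix, 0 at 2-fold and 3 to 4 with a sort left out. Shares of all genes under these sort settings are not given here. The members' median in the sorts, -0.06, was -0.12 on processed signals, -0.11 without background subtraction, -0.23 on the series matrix, -0.0141 with no signal filter, and -0.0571 to -0.0132 with a sort left out. On all 4 deletion arrays, members higher (0) ranged from 3 to 13 and members lower (4) from 8 to 35 with a day left out, and the lower ones numbered 0 with median centring and 1 at 2-fold. The counts with a day left out are those of the other day. Of all genes, 5.77% were higher and 7.39% lower on day 3, and 2.6% higher and 2.03% lower on day 5. The day values, chosen after seeing the data, moved as follows. With median centring, members higher on day 3 numbered 5, higher on day 5 1 and lower on day 5 20. These are 5.88%, 1.18% and 23.5% of members, against 1.61%, 1.1% and 0.982% of all genes. The members' medians were then 0.0335 and -0.505. At 2-fold, members higher and lower on day 3 numbered 6 and 3 and lower on day 5 19. These are 7.06%, 3.53% and 22.4% of members, against 1.73%, 1.69% and 0.713% of all genes. The day 3 and day 5 medians were 0.15 and -0.48 on processed signals, 0.21 and -0.54 on the series matrix and 0.0283 and -0.255 with no signal filter, and the day 3 median was 0.14 where both RNAs had to be well above background. Causes were not tested. Slide or scan as a block was not run because each RNA pair lies on its own slide, and the day difference has no residual degrees of freedom alone. Each ratio already pairs both RNAs on an array. Signal limits the sorts, where 46 of 97 members were tested.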
